A study of Chlamydomonas reinhardtii with 9 samples.

Results

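A set of 10 nuclear genes of Chlamydomonas reinhardtii that encode enzymes of the Calvin cycle was followed through every library of the series. They are the small-subunit genes RBCS1 (Cre02.g120100) and RBCS2 (Cre02.g120150), the activase gene RCA1 (Cre04.g229300), and PGK1 (Cre11.g467770), GAP3 (Cre01.g010900), FBA3 (Cre05.g234550), FBP1 (Cre12.g510650), SBP1 (Cre03.g185550), TRK1 (Cre02.g080200) and PRK1 (Cre12.g554800). They were chosen by the enzyme they encode, as a list of 10 loci, and make up 10 of the 17893 genes counted. All 10 were detected in all 9 libraries, and all 10 passed the filter on low counts in each fit described here.

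The Calvin cycle is the set of stromal reactions by which the chloroplast turns CO2 into sugar phosphates with ATP and NADPH from the light reactions. Rubisco, built from a large subunit encoded in the chloroplast and small subunits encoded in the nucleus, carboxylates ribulose bisphosphate, and Rubisco activase removes sugar phosphates that block its active site. Phosphoglycerate kinase and glyceraldehyde-3-phosphate dehydrogenase then reduce the product. The remaining enzymes rebuild the acceptor, ending with phosphoribulokinase. Chlamydomonas can also grow on acetate, which the medium used here contains, so the cultures did not rely on CO2 fixation alone.

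The study asked whether droplet-based single-cell RNA-seq (Chromium 3′ chemistry) could tell apart algal cells by their nutrition. Cells were grown in Tris Acetate Phosphate (TAP) medium in constant light and moved to the test media 23 h before loading. Experiment 1 gave 3 libraries of strain CC-5390 and experiment 2 gave 4 of CC-5390 and 2 of strain CC-4532. Values are UMIs (unique molecular identifiers, each marking 1 captured transcript), summed over the cells of a library and given as CPM, UMIs of the gene per 1000000 UMIs of that library. Each transcript is counted at its 3′ end, so CPM needs no scaling by gene length.

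In the Fe− groups, cells spent the 23 h with 0 µM FeEDTA and a full nitrogen supply. N− cells were kept with iron but without nitrogen. The Mix library is a blend of Fe− and Fe+ cells of experiment 1. The Fe+ groups had 20 µM FeEDTA and nitrogen. CC-5390 (cw15 arg7-8::ARG7, mating type plus) has no cell wall and carries an ARG7 insertion that complements its arg7-8 allele, in every CC-5390 library including the controls. CC-4532 (mating type minus) has a wall, and was sampled only at Fe− and Fe+ in experiment 2. N− was loaded as R1 and R2, which are technical duplicates, so both count as 1 sample. Each iron group therefore held 2 libraries in CC-5390 and 1 in CC-4532, and p-values measure only the spread between these libraries.

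Libraries held 2064 to 11798 cells and 7576775 to 52436795 UMIs, with medians of 1388 UMIs per cell in N− R1 to 5843 in CC-5390 Fe− of experiment 2. Of 73141 cell barcodes, 576 occurred in 2 or more libraries, at most 40 between any pair, and 0 of these had identical counts. The labels held for genes known to mark each condition. FEA1, which encodes an iron assimilation protein, had 2202, 618 and 582 CPM in the Fe− libraries of CC-5390 in experiments 1 and 2 and of CC-4532, against 339.9, 132 and 16.6 CPM in their Fe+ partners. FEA2 and FRE1, the second such gene and a ferric reductase gene, were also higher at Fe− in all 3 pairs. DGTT1, a diacylglycerol acyltransferase gene, had 122 and 139 CPM in N− R1 and R2, against 0.558 CPM in CC-5390 Fe+ of experiment 2. It was also higher at Fe− than at Fe+ in all 3 pairs, with 14.6 CPM in CC-5390 Fe− of experiment 2. DGTT1 was thus highest in N− but not particular to it. The 10 most abundant genes took between 13.3% of UMIs (CC-5390 Fe+, experiment 1) and 22.2% (CC-4532 Fe−), so CPM is a relative level, and a few genes can move the rest.

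The Calvin cycle transcripts had lower levels in iron-starved than in iron-replete cells of both strains, with RBCS2 in CC-4532 as the exception. In CC-5390, the Fe− level of every gene was below its Fe+ level in both experiments, at ratios of 0.110 (SBP1) to 0.486 (RBCS2). In CC-4532, 9 of the 10 were lower at Fe−, at ratios of 0.129 (SBP1) to 0.353 (RCA1), while RBCS2 stood at a ratio of 1.18 (95% counting interval 1.18 to 1.19). In N− cells all 10 were lower than in Fe+ cells, and SBP1, GAP3 and PRK1 were lowest relative to Fe+.

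**Figure D1:**
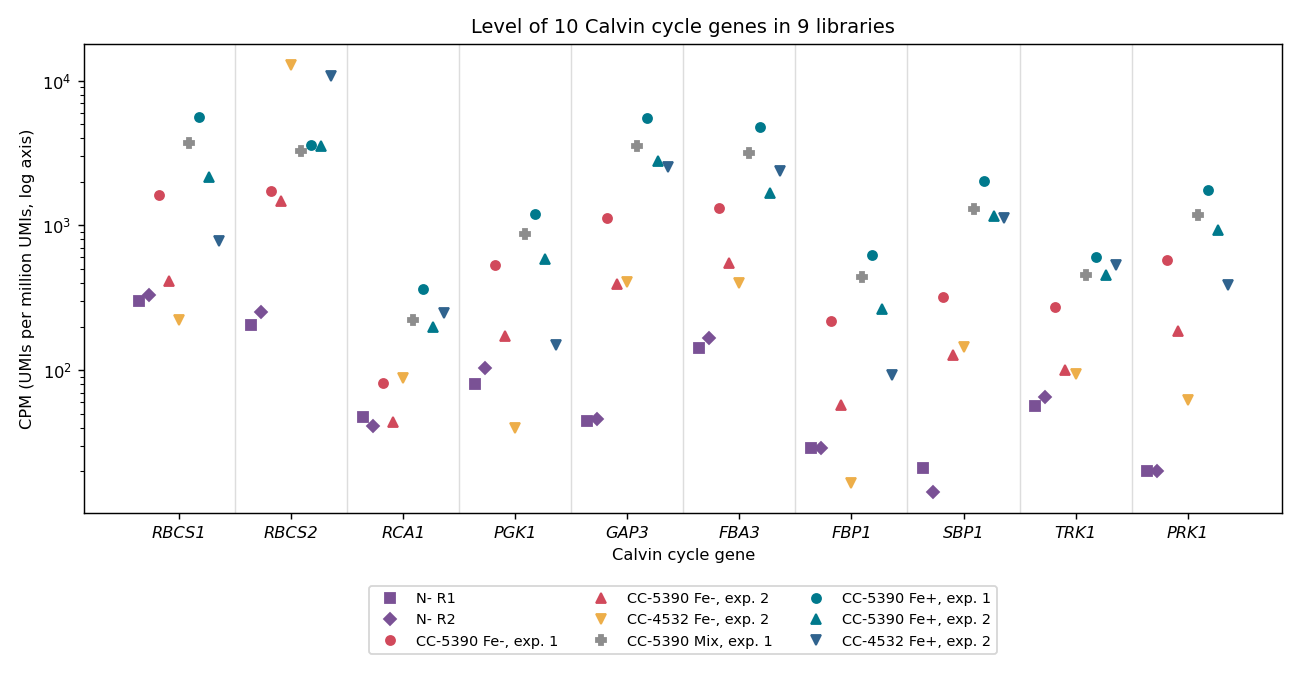
CPM of each of the 10 Calvin cycle genes (x axis) in each of the 9 libraries (y axis, log scale), with 1 point per library and no averaging. Within CC-5390 the Fe− points (red) lie below the Fe+ points (green) of the same gene, the N− points (purple) lie farthest below Fe+ for GAP3, SBP1 and PRK1, and RBCS2 in CC-4532 lies above all other points, at 12748 CPM in Fe− and 10775 CPM in Fe+.

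The small-subunit genes RBCS1 and RBCS2 were among the most abundant of the set in the Fe− and Fe+ libraries of CC-5390. In CC-4532 Fe+, RBCS1 lay below GAP3, FBA3 and SBP1. RBCS1 had 1622 and 410.4 CPM in the CC-5390 Fe− libraries of experiments 1 and 2, against 5626 and 2161 CPM in the Fe+ libraries. In CC-4532 it had 222 CPM at Fe− and 779.6 CPM at Fe+. RBCS1 was lower at Fe− in all 3 pairs, and in CC-5390 the groups did not overlap, but its Fe+ level in CC-4532 was under its Fe− level in CC-5390 of experiment 1.

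RBCS2 had 1734 and 1470.1 CPM in the CC-5390 Fe− libraries, against 3565 and 3506 CPM in the Fe+ libraries. In CC-4532 it had 12748 CPM at Fe− and 10775 CPM at Fe+. The 2 CC-5390 groups did not overlap and the 2 libraries of each group lay close together, whereas both CC-4532 libraries were above every CC-5390 library. At 12748 CPM RBCS2 ranked 17th of all genes in CC-4532 Fe−.

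RCA1, the activase gene, was the scarcest of the set in Fe+ cells of CC-5390. It had 81.5 and 43.7 CPM in the CC-5390 Fe− libraries, against 366 and 197 CPM in the Fe+ libraries, and 87.6 CPM at Fe− against 248 CPM at Fe+ in CC-4532. All 3 Fe− libraries were below all 3 Fe+ libraries. Its Fe− to Fe+ ratio was nearly the same in both CC-5390 experiments, 0.223 (95% counting interval 0.214 to 0.232) and 0.222 (0.211 to 0.232). Such intervals cover counting error only and not the difference between cultures.

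Of the reduction genes, GAP3, for chloroplast glyceraldehyde-3-phosphate dehydrogenase, had 1116 and 393 CPM in the CC-5390 Fe− libraries, against 5475 and 2794 CPM in the Fe+ libraries. In CC-4532 it had 404 CPM at Fe− and 2541 CPM at Fe+. The 3 Fe− libraries were all below the 3 Fe+ libraries. PGK1, for phosphoglycerate kinase, had 530.0 and 172 CPM in the CC-5390 Fe− libraries, against 1194 and 588 CPM in the Fe+ libraries, and 39.9 CPM at Fe− against 148 CPM at Fe+ in CC-4532. PGK1 was lower at Fe− in each pair, but across strains the groups overlapped, since CC-4532 Fe+ was below both CC-5390 Fe− libraries.

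In the regeneration branch, FBA3, for fructose-bisphosphate aldolase, was the most abundant. It had 1322 and 548 CPM in the CC-5390 Fe− libraries, against 4749 and 1681 CPM in the Fe+ libraries, and 402 CPM at Fe− against 2366 CPM at Fe+ in CC-4532. No Fe− library reached any Fe+ library. SBP1, for sedoheptulose-1,7-bisphosphatase, had 319.6 and 128 CPM in the CC-5390 Fe− libraries, against 2029 and 1167 CPM in the Fe+ libraries, and 145 CPM at Fe− against 1124 CPM at Fe+ in CC-4532. SBP1 too was separated in all 6 libraries, and its ratios of 0.158, 0.110 and 0.129 were the lowest of the 10 genes in each pair.

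FBP1 encodes fructose-1,6-bisphosphatase. It had 217 and 57.3 CPM in the CC-5390 Fe− libraries, against 623 and 264 CPM in the Fe+ libraries, and 16.6 CPM at Fe− against 92.3 CPM at Fe+ in CC-4532. TRK1, for transketolase, had 274 and 99.9 CPM in the CC-5390 Fe− libraries, against 605 and 453 CPM in the Fe+ libraries, and 94.6 CPM at Fe− against 530.0 CPM at Fe+ in CC-4532. TRK1 was separated across both strains and FBP1 only within each strain.

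PRK1 encodes phosphoribulokinase, which makes the CO2 acceptor. It had 580.1 and 187 CPM in the CC-5390 Fe− libraries, against 1758 and 934 CPM in the Fe+ libraries, and 62.4 CPM at Fe− against 389.6 CPM at Fe+ in CC-4532. PRK1 was lower at Fe− in each pair, and its groups overlapped across strains because the Fe+ level of CC-4532 was under the Fe− level of CC-5390 in experiment 1.

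Across the set, all 10 genes had both CC-5390 Fe− libraries below both Fe+ libraries, a pattern shown by 9.42% of 15370 genes. All but RBCS2, 9 of the 10, were lower at Fe− in all 3 pairs, against 19.9% of 15590 genes. For 5 (RCA1, GAP3, SBP1, TRK1 and FBA3) all 3 Fe− libraries were below all 3 Fe+ libraries, against 2.07% of genes. At least 2-fold lower at Fe− were 10 of 10 in CC-5390 of experiment 1 (8.98% of all genes), 10 of 10 in experiment 2 (17.3%) and 9 of 10 in CC-4532 (15.3%). Their median log2 ratios were -1.70, -2.19 and -2.48, where all genes had medians of 0.18, 0.02 and 0.40. The study's list of 83 photosynthesis genes (photosystems, antennae, chlorophyll synthesis and organelle factors), which holds 0 of the 10, had medians of -1.28, -1.39 and -1.82.

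**Figure D2:**
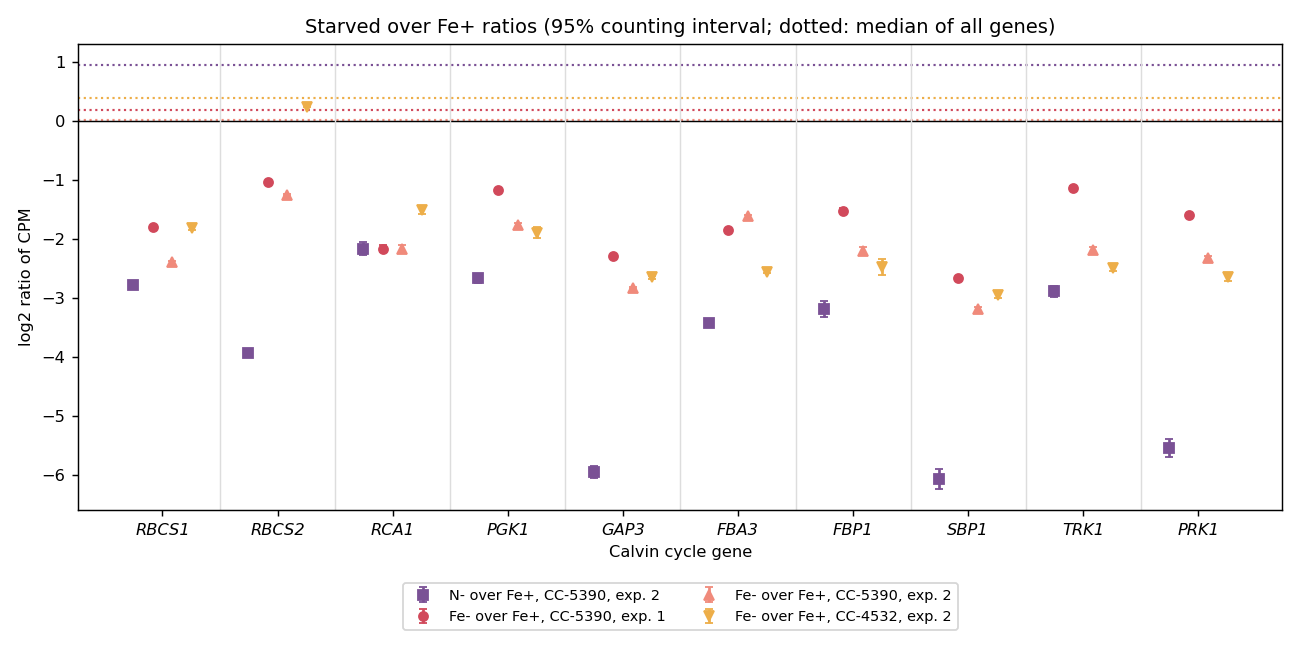
Log2 ratio of CPM (y axis) for each Calvin cycle gene (x axis) in N− over Fe+ cells of CC-5390 in experiment 2 and in Fe− over Fe+ cells of the 3 pairs, with 95% counting intervals as bars and the median of all genes as a dotted line of the same colour. All ratios lie below 0 except RBCS2 in CC-4532, at 0.24, and the N− ratios of SBP1, GAP3 and PRK1 lie lowest, at -6.07, -5.94 and -5.54.

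The iron comparison was tested on summed UMIs with edgeR's quasi-likelihood test and Benjamini-Hochberg adjustment over all genes. With the 2 CC-5390 libraries of each group treated as unpaired, 0 of 14588 genes were called (0% lower), 1777 had an unadjusted p under 0.05 and DESeq2 called 556. Of the 10 genes, 8 had an unadjusted p under 0.05, against 5.55% of all genes being lower at that level. SBP1 had a log2 fold change of -3.05 (SE 0.75, adjusted p = 0.253) and RBCS2 of -1.28 (SE 0.74, adjusted p = 0.507), with the other 8 in between. DESeq2 called 5, RBCS1, RCA1, PRK1, GAP3 and SBP1, against 1.5% of genes called lower.

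In experiment 2, by the paper's methods, the pre-culture was spread over separate flasks before the 23 h of treatment. Within an experiment, both iron cultures still came from 1 pre-culture, so the experiment pairs them. With it as a replicate block, edgeR called 1194 genes, 564 of them lower (3.87%), and all 10 Calvin cycle genes were among those. The log2 fold change was -2.70 for GAP3 (SE 0.30, adjusted p = 1.06e-05) and -3.07 for SBP1 (SE 0.36, adjusted p = 1.92e-05). For RBCS1 it was -2.23 (adjusted p = 6.06e-05), for FBA3 -1.87 (adjusted p = 0.000463), for PRK1 -2.10 (adjusted p = 0.000736) and for RCA1 -2.31 (adjusted p = 0.00282). The 4 genes with the largest adjusted p were FBP1 at -2.0 (0.00495), RBCS2 at -1.28 (0.00526), PGK1 at -1.61 (0.0084) and TRK1 at -1.80 (0.0087). This fit had 1 residual degree of freedom, and its estimate of the spread leaned on a prior of 20.4 degrees of freedom shared among genes. Of the 83 photosynthesis genes it called 44 lower and 0 higher.

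With the CC-4532 pair added and strain as a covariate, edgeR's quasi-likelihood test called 498 of 14250 genes, 262 of them lower (1.84%). Of the Calvin cycle genes, 4 passed, with log2 fold changes of -3.15 for SBP1 (SE 0.56, adjusted p = 0.0254), -2.80 for GAP3 (adjusted p = 0.0356), -2.17 for RCA1 (adjusted p = 0.0459) and -2.38 for PRK1 (adjusted p = 0.0472). FBP1, FBA3, TRK1, RBCS1 and PGK1 had log2 fold changes of -1.81 to -2.25 with adjusted p of 0.0541 to 0.081, and RBCS2 had -0.91 (adjusted p = 0.354). With the culture pair as a replicate block, 9 genes were called (8.65% of all genes were called lower), and RBCS2 was not (-0.91, SE 0.34, adjusted p = 0.0688). The 4 calls without the block went to 0 when either CC-4532 library was left out, where 0 of all genes were called lower. Without CC-5390 Fe+ of experiment 1 they also went to 0 (13 of 14670 genes lower). They went to 1 without CC-5390 Fe− or Fe+ of experiment 2 (84 of 14489 and 103 of 14586 lower). Without CC-5390 Fe− of experiment 1 they went to 9 (685 of 14393 lower), so their number moved with that over all genes.

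Summed over the 10 genes, the transcripts took 0.780% of UMIs in CC-5390 Fe− and 2.60% in Fe+ of experiment 1, a ratio of 0.300 (95% counting interval 0.299 to 0.301). In experiment 2 they took 0.351% in Fe− and 1.37% in Fe+, a ratio of 0.255. In CC-4532 they took 1.42% in Fe− and 1.90% in Fe+, a ratio of 0.749, and RBCS1 and RBCS2 together made up 91.2% of the sum in Fe− and 60.8% in Fe+. The other 8 genes together had 1253 CPM in CC-4532 Fe− and 7440.1 CPM in Fe+. In CC-5390 they had 4441 CPM in Fe− and 16799 CPM in Fe+ in experiment 1, and 1629 CPM in Fe− and 8077 CPM in Fe+ in experiment 2.

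The 2 CC-5390 experiments also differed from each other at the same iron supply. All 10 genes were lower in experiment 2 than in experiment 1, at both Fe− (77% of genes) and Fe+ (75.9%). RBCS2 differed least, with ratios of 0.848 at Fe− and 0.983 at Fe+, and the other 9 had ratios of 0.253 (RBCS1, Fe−) to 0.749 (TRK1, Fe+). The median of all genes was itself shifted by -0.91 at Fe− and -0.66 at Fe+ on the log2 scale. By the paper's methods, the experiments also differed in sequencing platform, read depth and pre-culture schedule. The part of these in the shift was not tested.

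The small subunits of Rubisco come from neighbouring genes. In the v5.5 annotation of RefSeq, RBCS1 spans bases 6936683 to 6941921 of chromosome 2 and RBCS2 bases 6941968 to 6943439, with 46 bases between them. The other 8 genes lie apart from them and from each other. GAP3 spans bases 2039260 to 2042765 of chromosome 1, TRK1 984214 to 988819 of chromosome 2, SBP1 5486878 to 5489490 of chromosome 3, and RCA1 3728598 to 3732872 of chromosome 4. FBA3 spans bases 2060640 to 2063875 of chromosome 5, PGK1 1638740 to 1643130 of chromosome 11, FBP1 1935474 to 1938770 of chromosome 12 and PRK1 7636065 to 7639700 of chromosome 12. The coding sequences of RBCS1 and RBCS2 are nearly identical, and the counting may have split or dropped reads that match both, so the balance between them is uncertain. RBCS1 supplied 48.3% of RBCS UMIs in CC-5390 Fe− and 61.2% in Fe+ of experiment 1, and 21.8% in Fe− and 38.1% in Fe+ of experiment 2. In CC-4532 it supplied 1.71% in Fe− and 6.75% in Fe+. In N− R1 and R2 it supplied 59.1% and 56.8%, against 38.1% in CC-5390 Fe+ of experiment 2. The share of RBCS1 was thus lower at Fe− in each of the 3 pairs, by a ratio of RBCS1 to RBCS2 that was 0.593, 0.453 and 0.240 of its Fe+ value. With 3 pairs no exact paired test can pass 0.05, so none was run.

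**Figure D3:**
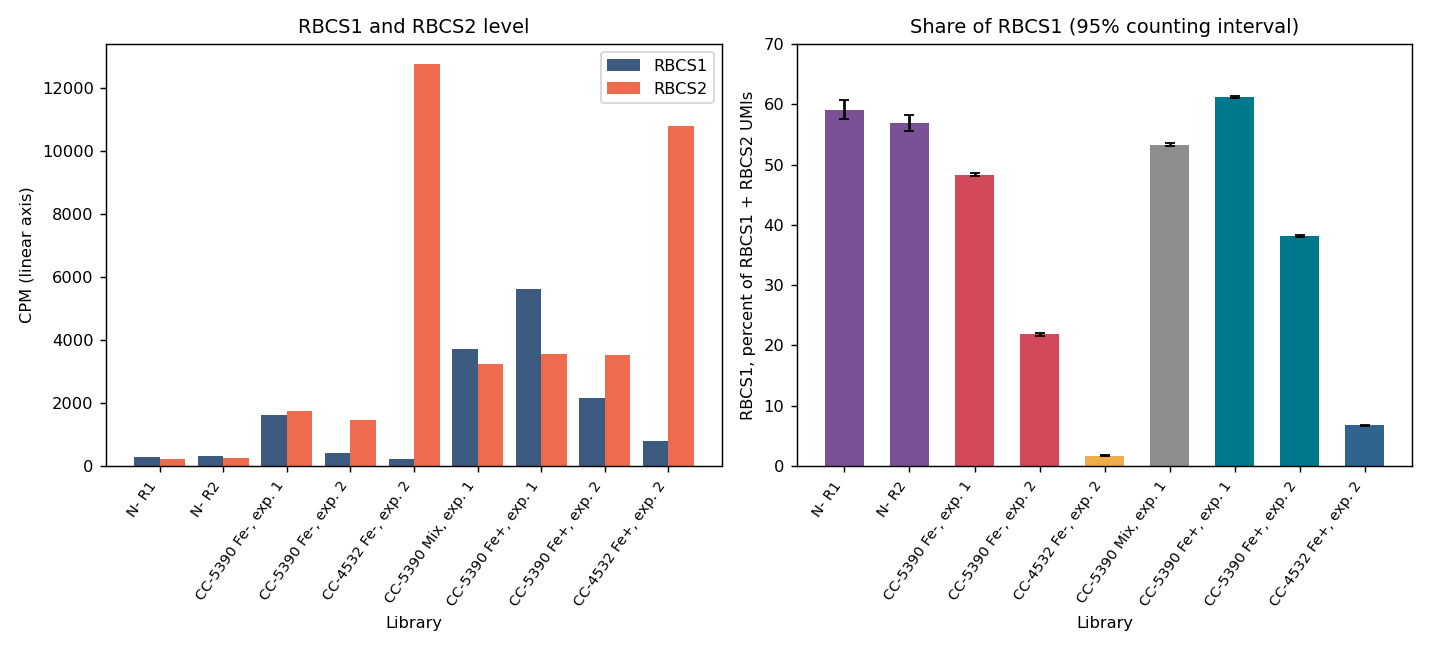
Left, CPM of RBCS1 and RBCS2 in each library (linear axis, 1 library per pair of bars). Right, RBCS1 as a percent of RBCS1 plus RBCS2 UMIs, with 95% binomial counting intervals as error bars. RBCS1 makes up 1.71% in Fe− and 6.75% in Fe+ of CC-4532, and its share in CC-5390 runs between 21.8% (Fe−, experiment 2) and 61.2% (Fe+, experiment 1).

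Between strains, RBCS2 was the gene of the 10 that stood apart. The paper saw little lysis of walled CC-4532 cells in the extraction buffer, and data from fewer genes. In experiment 2, median genes per cell were 367 in CC-4532 and 729 in CC-5390 at Fe−, and 512 and 454 at Fe+. The part of RNA recovery in the strain ratios was not tested. Within experiment 2, RBCS2 in CC-4532 was 8.67 times its CC-5390 level at Fe− (12748 against 1470.1 CPM) and 3.07 times at Fe+ (10775 against 3506 CPM). RCA1 was also higher in CC-4532, 2.01 times at Fe− and 1.26 times at Fe+. PGK1 was 0.231 and 0.252 times, FBP1 0.289 and 0.350 times, PRK1 0.333 and 0.417 times, and RBCS1 0.540 and 0.361 times its CC-5390 level at Fe− and Fe+. GAP3, SBP1, TRK1 and FBA3 lay between 0.734 and 1.41 times in both iron states. At least 2-fold higher in CC-4532 were 2 of the 10 at Fe− (9.2% of all genes) and 1 at Fe+ (3.9%), and at least 2-fold lower were 3 at Fe− (35.5%) and 4 at Fe+ (43.5%). The median log2 ratio of all genes was itself -0.57 at Fe− and -0.87 at Fe+, so these ratios of CPM are read beside it. With TMM scaling, chosen after seeing the data, that median was -0.05 at Fe− and 0.03 at Fe+, and TRK1 (1.36) and FBA3 (1.06) at Fe− and GAP3 (1.70) and SBP1 (1.80) at Fe+ moved above 1. RBCS2 was then 12.5 times its CC-5390 level at Fe− and 5.74 times at Fe+, and RCA1 2.89 and 2.35 times. PGK1 was 0.333 and 0.472 times, and RBCS1, FBP1 and PRK1 also stayed below 1 in both iron states. At least 2-fold higher were then 2 at Fe− (18.6% of all genes) and 4 at Fe+ (13.8%), and at least 2-fold lower 3 at Fe− (19.9%) and 1 at Fe+ (10.3%).

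In the fit over 6 libraries, which had no term for the experiment and so set CC-4532 against CC-5390 of both experiments, edgeR's quasi-likelihood test called 436 genes by strain, 280 of them higher in CC-4532 (1.96%) and 156 lower (1.09%). RBCS2 was called, with a log2 fold change of 3.41 (SE 0.60, adjusted p = 0.0146), and was higher in both CC-4532 libraries than in all 4 of CC-5390. Over the alternatives its log2 fold change ranged between 2.81 and 3.93, and its adjusted p between 7.18e-09 and 0.535. It was called in 10 of 13 fits, and lost the call without either CC-4532 library or without CC-5390 Fe− of experiment 1. None of the other 9 was called. PGK1 had -1.62 (adjusted p = 0.131), RCA1 1.33 (adjusted p = 0.135) and FBP1 -1.37 (adjusted p = 0.186), and DESeq2 called PGK1 lower (adjusted p = 0.0145, 4.47% of genes called lower) and RCA1 and RBCS2 higher (adjusted p = 0.0417 for RCA1, 6.41% of genes called higher). With the experiment as a covariate, a fit chosen after seeing the data, 327 genes were called higher (2.29%) and 249 lower (1.75%), RBCS2 had 3.12 (SE 0.44, adjusted p = 0.000591), and again none of the other 9 was called. In that fit strain was the contrast of the CC-4532 pair with the CC-5390 pair of experiment 2. Its p-value measured only the spread within culture pairs and held no spread between cultures of the same strain. CC-4532 was grown only in experiment 2, and with 1 library per iron state the strain and the culture cannot be told apart.

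Whether iron acted differently in the 2 strains was tested as an interaction over the 6 libraries, chosen after seeing the data. RBCS2 had an interaction of 1.12 on the log2 scale (SE 1.36, adjusted p = 1.00 by edgeR's quasi-likelihood test), and with the culture pair as a replicate block of 1.12 (SE 0.41, unadjusted p = 0.0084, adjusted p = 0.502). No Calvin cycle gene passed in either fit. Over all genes, the unblocked fit called 0, with 267 genes at an unadjusted p below 0.05, and the blocked fit called 5, 2 lower (0.014%) and 3 higher (0.0211%). DESeq2 was not run on the interaction. The opposite direction of RBCS2 in CC-4532 therefore rests on 1 pair of libraries.

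N− cells had the lowest levels of most of these genes. SBP1 had 21.0 and 14.4 CPM in N− R1 and R2, against 1167 CPM in CC-5390 Fe+ of the same experiment. GAP3 had 44.3 and 46.2 CPM in N−, against 2794 CPM in Fe+, and PRK1 had 20.1 and 20.2 CPM, against 934 CPM. The N− to Fe+ ratios of these 3 were 0.0149 (95% counting interval 0.0132 to 0.0167), 0.0162 (0.0151 to 0.0174) and 0.0215 (0.0193 to 0.0240), with R1 and R2 summed.

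The small subunits and the aldolase lay closer to their Fe+ level in N− cells than these 3. RBCS1 had 298 and 329.6 CPM in N−, against 2161 CPM in Fe+, a ratio of 0.146. RBCS2 had 207 and 250.3 CPM in N−, against 3506 CPM in Fe+, a ratio of 0.0658. FBA3 had 142 and 167 CPM in N−, against 1681 CPM in Fe+, a ratio of 0.0927. The duplicates lay close to each other and far from Fe+ for all 3.

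The other 4 genes were the least far below Fe+ together with RBCS1. FBP1 had 28.9 and 29.0 CPM in N−, against 264 CPM in Fe+, a ratio of 0.110, and TRK1 had 56.6 and 64.9 CPM, against 453 CPM, a ratio of 0.135. PGK1 had 79.7 and 103 CPM, against 588 CPM, a ratio of 0.157. RCA1 had 47.5 and 41.0 CPM, against 197 CPM, a ratio of 0.223, the highest of the 10. R1 and R2 were again far closer to each other than to Fe+. N− is 1 sample, so no test was made. All 10 were at least 2-fold lower, against 15.7% of genes. Their median log2 ratio was -3.31, that of the photosynthesis list -2.35 and that of all genes 0.95, so the middle gene was itself higher in N− on this scale. Scaling with TMM, which set the median of all genes to -0.08, gave lower ratios, 0.00728 for SBP1 to 0.109 for RCA1.

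Against Fe− cells of the same experiment, the order of the genes was different. RCA1 had 43.9 CPM in N− and 43.7 CPM in Fe−, a ratio of 1.01 with a 95% counting interval of 0.924 to 1.09. RBCS1 had a ratio of 0.768, TRK1 of 0.612, PGK1 of 0.536 and FBP1 of 0.505. FBA3 had 0.284, RBCS2 0.157, SBP1 0.136, GAP3 0.115 and PRK1 0.107. In N−, 9 of the 10 were lower (24.2% of all genes) and 5 at least 2-fold lower (8.8%). The median log2 ratio of all genes was 0.94. These counts depended on depth. On cells thinned to 1000 UMIs, RCA1 had 0.952, and TRK1 (0.436), FBP1 (0.419) and PGK1 (0.376) were also at least 2-fold lower. No share over all genes was taken on thinned cells. The N−/Fe+ and Fe−/Fe+ comparisons of experiment 2 share the Fe+ library, so their values are given only side by side.

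In the Mix library, all 10 genes had a level between those of the Fe− and Fe+ libraries of experiment 1, as did 74.9% of 14790 genes. SBP1 had 1296 CPM in Mix, with 319.6 CPM in Fe− and 2029 CPM in Fe+, and GAP3 had 3516 CPM in Mix, with 1116 CPM in Fe− and 5475 CPM in Fe+. RBCS2 stood 17.9% of the way from the Fe+ to the Fe− level, at 3237 CPM, and the other 9 genes 42.9% to 50.4%.

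Mix cells were then divided by a score over the study's 100 iron deficiency genes, none of which is a Calvin cycle gene of this set, at a score halfway from the Fe− to the Fe+ median. Of the Fe− cells 95.8% were above that midpoint, and of the Fe+ cells 4.51%. In the Mix 5203 cells were above and 5745 below, with median UMIs of 2507 and 2440. The cells above had lower levels of all 10 genes (40.1% of all genes), at ratios of 0.389 for SBP1, 0.456 for GAP3 and 0.484 for RCA1 to 0.676 for RBCS2 and TRK1. Both kinds of cells were prepared in 1 library here, and the contrast was smaller than between the Fe− and Fe+ libraries for each gene.

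**Figure D4:**
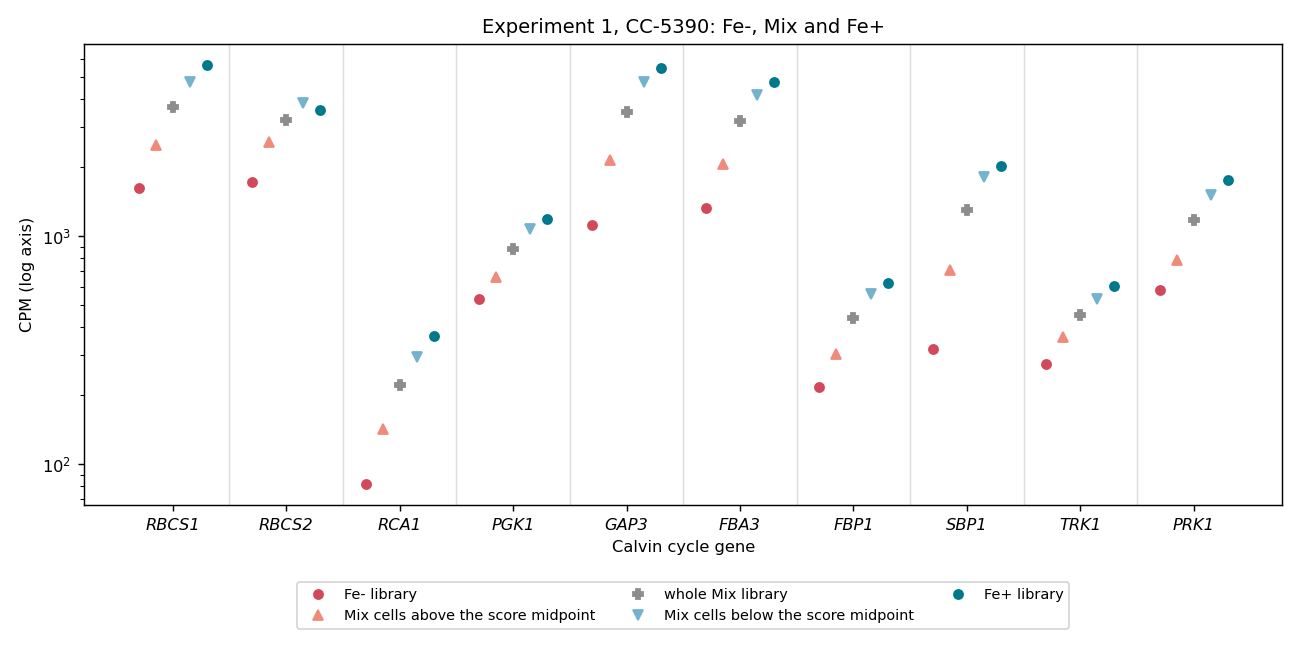
CPM (y axis, log scale) of each Calvin cycle gene (x axis) in experiment 1, in the Fe− library, the Mix cells above the midpoint of the iron deficiency score, the whole Mix, the Mix cells below it and the Fe+ library. For SBP1 the values run 319.6, 708, 1296, 1823 and 2029 CPM, and only for RBCS2 do the cells below the midpoint, at 3823 CPM, exceed the Fe+ library, at 3565 CPM.

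At the level of single cells, each cell was thinned to 1000 UMIs to give equal depth, which left out 59 to 1505 shallower cells per library. In N− R1 it left out 1158 of 3337 cells. Cells were also cut into 4 equal parts by their UMIs before thinning. The deepest part held 0.943 (CC-4532 Fe−) to 2.31 times (N− R2) as many thinned UMIs of the 10 genes as the shallowest. After thinning, the median cell held 7 UMIs of the 10 genes in Fe− and 25 in Fe+ of CC-5390 in experiment 1. In experiment 2 it held 3 in Fe− and 13 in Fe+, and in CC-4532 13 in Fe− and 17 in Fe+. The median was 17 in Mix and 0 in both N− libraries, where 52.6% and 56.9% of cells had no UMI of any of the 10. The lower level at Fe− was thus seen in the middle of the distribution over cells in CC-5390, with Fe− cells of experiment 1 at 2 to 16 UMIs and Fe+ cells at 16 to 36 (5th to 95th percentile).

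The share of cells with at least 1 UMI of a gene was lower at Fe− for all 10 genes in both CC-5390 pairs. In CC-4532 it was lower for the 9 genes other than RBCS2. Both held at 1000 and at 500 UMIs per cell. The share was taken for the Calvin cycle genes only, so no count over all genes stands beside these. At 1000 UMIs, the share of SBP1 in CC-5390 was 25.3% at Fe− against 84.9% at Fe+ in experiment 1 and 10.1% at Fe− against 66.6% at Fe+ in experiment 2. In CC-4532 it was 12.8% at Fe− against 51.4% at Fe+. Without thinning, the same shares were 48.9% at Fe− against 97.3% at Fe+, 36.2% at Fe− against 87.3% at Fe+, and 30.5% at Fe− against 84.1% at Fe+. For RBCS2 in CC-4532 the thinned shares were 98.6% in Fe− and 99.0% in Fe+, so nearly every cell held a UMI in both and no order is read from them. The cultures hold no cell type that lacks these genes, so no background share could be measured.

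**Figure D5:**
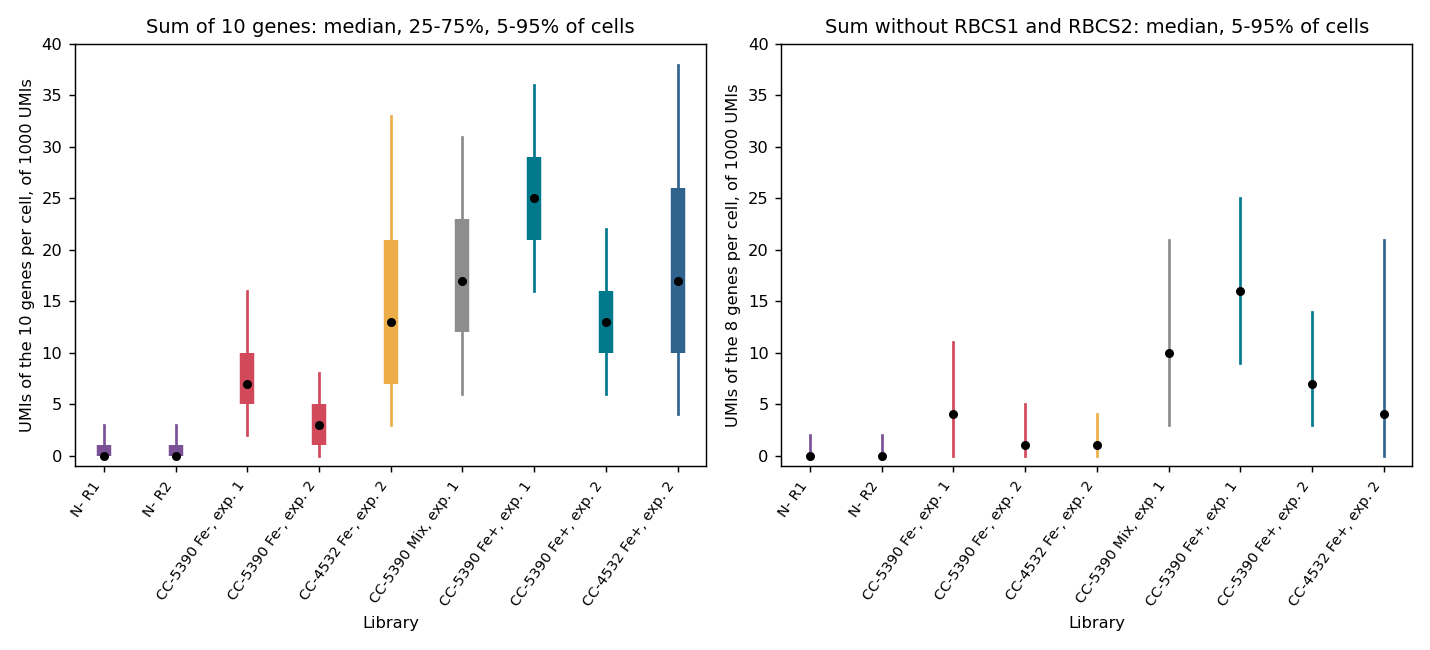
UMIs per cell after thinning to 1000 UMIs (y axis), by library (x axis), for the sum of the 10 genes (left; dot, median; thick bar, 25th to 75th percentile; thin line, 5th to 95th) and for the sum without RBCS1 and RBCS2 (right; dot and thin line only). In CC-4532 Fe+ the sum of the other 8 genes spans 0 to 21 UMIs around a median of 4, while in CC-5390 Fe+ of experiment 2 it spans 3 to 14 around a median of 7.

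By variance over mean in thinned cells, CC-4532 Fe+ held the most genes over a limit of 1.5. Counting alone would give a variance over mean of about 1 in thinned cells, and 12 of the 90 values, 1 for each gene and library, were over 1.5. Of these, 6 were in CC-4532 Fe+, 3 in Mix, and 1 each in CC-4532 Fe−, CC-5390 Fe− and CC-5390 Fe+ of experiment 2. The ratio was computed for the Calvin cycle genes only, so no share over all genes stands beside these counts. RBCS2 had 7.0 in CC-4532 Fe− and 4.8 in CC-4532 Fe+, and FBA3 and GAP3 had 3.41 and 3.05 in CC-4532 Fe+. In CC-4532 Fe−, FBA3 and GAP3 had 1.41 and 1.43. Their means were 0.412 and 0.417 UMIs per cell there, against 2.33 and 2.21 in CC-4532 Fe+. For the 8 genes without RBCS1 and RBCS2, the summed UMIs had a variance over mean of 1.90 in CC-4532 Fe− and 6.80 in CC-4532 Fe+, against 1.71 and 1.78 in CC-5390 Fe− and Fe+ of experiment 2. In experiment 1 it was 2.23 in CC-5390 Fe−, 1.52 in Fe+ and 3.01 in Mix. The means of this sum also differed. They were 1.28 and 6.87 UMIs per cell in CC-4532 Fe− and Fe+, and 1.51 and 7.84 in CC-5390 Fe− and Fe+ of experiment 2. The part of the mean in the variance over mean was not tested, so these values do not rank the libraries by relative spread. In CC-4532 Fe+, 9.88% of cells had none of the 8, and in CC-4532 Fe− 37.9%.

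In the same CC-4532 Fe+ cells, the median correlation between the genes was the highest of all libraries. Over 3016 cells, thinned counts of GAP3 and FBA3 had a Pearson correlation of 0.58, those of GAP3 and SBP1 of 0.51, and those of RBCS1 and RBCS2 of -0.22. The median over the 45 gene pairs was 0.19 there and 0.01 to 0.12 in the other 8 libraries. Cells of 1 library share their culture and preparation, so these are descriptions of the library. Among CC-4532 Fe+ cells ranked by UMIs before thinning and cut into 4 equal parts, the deepest part held 1.43 times as many UMIs of the 8 genes as the shallowest, 7.94 against 5.57 per cell, and 2.09 times as many of RBCS1, 1.02 against 0.487 per cell. The parts of depth and of the mean count in the correlations were not tested. Pairs of other genes were not correlated, so there is no background for these values.

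Over the libraries, with N− summed to 1, the genes whose log2 levels followed the mean of the 10 most closely were Cre02.g088850 (Pearson correlation 0.998), Cre03.g164300 (0.996), Cre11.g476750 (0.995), Cre06.g259900 (0.992) and Cre09.g408300 (0.992). They were the top 5 of 2413 genes with enough signal and range, of which 6.63% had a correlation over 0.9. Cre06.g259900 is ATPC, the gene for the gamma subunit of the chloroplast ATP synthase. It had 647, 286 and 321 CPM in the Fe− libraries of CC-5390 in experiments 1 and 2 and of CC-4532, against 2021, 1248 and 1159 CPM in their Fe+ partners, and 120 CPM in N−. These are 8 points that share media and experiments, and the correlation is a description. Within the set, FBA3 followed the mean of the other 9 genes most closely (0.987), then GAP3 (0.980), and PGK1 (0.795) and RBCS2 (0.419) least.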

How the data were processed

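The deposited matrices hold whole-number UMI counts per gene and cell, which the authors made with Cell Ranger on genome version 5.5, without normalization. They hold more cells than the study kept, and its filter (100 genes and 300 UMIs) removes 0 to 19 cells per library. All deposited cells were used, and no doublet caller was run. UMIs were summed per gene and library (Python 3.11.15, numpy 2.4.6, scipy 1.17.1) and tested in R 4.3.3 with edgeR 4.0.16 (filterByExpr, TMM, quasi-likelihood test, Benjamini-Hochberg, threshold 0.05). DESeq2 1.42.0, RLE factors, no filter, thinned cells, the replicate block and leaving out libraries were alternatives. The scripts were tested on simulated data.

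Ratios of single libraries have exact counting intervals at 95%. Background shares of ratios use genes with at least 20 UMIs in a pair, with 0.5 added. Those for the order of Fe− and Fe+ libraries use CPM with nothing added. They cover genes with at least 20 UMIs summed over all libraries compared. The study's own test over cells was not used, since cells of 1 library are not replicates. Fe− and Fe+ of 1 experiment share a pre-culture, as the methods state. Over 14588 genes, the deviations from the group means correlated between paired CC-5390 libraries (0.501), and edgeR's biological coefficient of variation was 0.349 in the blocked fit and 0.491 in the other.

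The genes, the lists and the tests were chosen with earlier results of these data known. Named genes were the 10 members, the condition check genes and the 5 genes most alike over libraries (at least 20 CPM on average, a range of at least 1 on the log2 scale, 1 CPM added). A further 7 loci of the pathway list were dropped because no source used here pairs their IDs with names, and no sequences are shown. Names of the 10 genes came with the list of loci that defined them, since the matrices hold locus IDs only, other gene names are those of the study, and positions those of RefSeq.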

Additional observations from a re-analysis of the deposited data

Results flagged for a closer look

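RBCS2 was the 1 gene whose Fe− to Fe+ difference had opposite signs in the strains. Its log2 ratio was 0.24 in CC-4532 (12748 CPM in Fe− and 10775 CPM in Fe+), and -1.04 and -1.25 in the CC-5390 pairs of experiments 1 and 2. The difference itself, tested as the interaction of strain and iron with edgeR's quasi-likelihood test, was 1.12 (SE 1.36, adjusted p = 1.00), and with the culture pair as a block 1.12 (SE 0.41, adjusted p = 0.502). CC-4532 had 1 library per iron state.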

How the results depend on the processing

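In CC-5390, the count of called genes, 0 as reported, was 1194 with the replicate block, 48 with no filter, 556 with DESeq2, 1340 with the block and thinned cells, 1329 with the block and RLE factors, and 11 to 364 without 1 library. The Calvin cycle genes called lower, 0 as reported, were 10, 5, 10 and 10 with the block, DESeq2, the block on thinned cells and the block with RLE factors, and 0 without 1 library. Combinations with the block were chosen after seeing the data. Over 6 libraries, the 498 calls and 4 Calvin cycle calls became 2494 and 9 with the block, 1110 and 8 with no filter, 226 and 2 on thinned cells, 1865 and 9 with DESeq2, 2072 and 10 with the block on thinned cells, and 2292 and 9 with the block and RLE factors. They ranged over 0 to 1915 and 0 to 9 without 1 library. Without the CC-4532 pair the block gave 1194 and 10, without the CC-5390 pair of experiment 1 it gave 3977 and 9, and without that of experiment 2 it gave 336 and 4.

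By strain, the 436 calls became 1248 with no filter, 188 on thinned cells, 1882 with DESeq2 and 0 to 1942 without 1 library. Calvin cycle genes called higher, 1 as reported, were 2 with DESeq2 and 0 to 1 without 1 library, and those called lower, 0 as reported, were 1 with DESeq2. The strain difference of FBA3, 0.43, was -0.12 to 0.92 without 1 library, with the negative value without CC-4532 Fe+. The interaction of RBCS1, -0.05, was 0.011 with the block, which called 5 genes against 0. With TMM scaling the strain ratios in experiment 2 passed 1 for TRK1 (1.36) and FBA3 (1.06) at Fe− and for GAP3 (1.70) and SBP1 (1.80) at Fe+. On thinned cells the TRK1 strain ratio at Fe− also passed 1, from 0.946 to 1.02. The RCA1 ratio of N− to Fe− in experiment 2 fell below 1 there, from 1.01 to 0.952. In the fits no other change of sign occurred, and the causes of these shifts were not tested.

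On thinned cells, the summed Fe− to Fe+ ratios were 0.309 and 0.245 in CC-5390 of experiments 1 and 2 and 0.798 in CC-4532, where leaving out organelle genes gave 0.744. The summed N− to Fe+ ratio, 0.0736, was 0.0583 on thinned cells, 0.0360 with TMM scaling, and 0.0687 to 0.0775 from 1 duplicate alone. The change in the RBCS1 to RBCS2 ratio on thinned cells was 0.651 in experiment 1 and 0.268 in CC-4532. At 500 UMIs per cell, 5 of 90 variance values were over 1.5. The study's filter on cells moved none of these results past its limit. With 1 library per strain, iron state and experiment, culture and condition cannot be told apart within a pair.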
